A study of Mus musculus with 2 samples.

Results

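Myocilin is described here as 1 gene, Myoc, of the 32285 genes counted in the series. It was chosen by its UMI counts per cell type and its spread over fibroblasts, which were already known, so that these levels, this spread and the genes that went with it are given as descriptions, without a test. Its values were read per cell type and library, and then over fibroblasts, taken as cells with at least 5 UMIs of Dcn, the gene of the collagen-binding proteoglycan decorin, and at least 2000 Dcn UMIs per 1000000 UMIs of the cell. A UMI (unique molecular identifier) marks a single captured RNA molecule, and levels are given as CPM, the summed UMIs of a gene per 1000000 summed UMIs of a group of cells. This gate held 11654 of the 20180 control cells and 8497 of the 15426 Dox cells, together 20151 of 35606.

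The study asked how single cells of the RPE (retinal pigment epithelium) layer respond to a low dose of doxorubicin (Dox), a DNA-damaging drug. C57BL/6J mice of 3 months received 1 µl of PBS (control) or of Dox at 100 ng/µl in the subretinal space, and the tissue was taken 7 days later. Each condition was 1 library made from 10 pooled eyes of 5 mice, so that treatment, injection and library cannot be told apart and no test between the conditions was possible. All intervals below are 95% and cover the error of counting UMIs or cells alone, not the spread between animals or libraries. They are exact Poisson intervals for levels, Clopper-Pearson intervals for shares and exact conditional binomial intervals for ratios. The samples are labelled as RPE cells, although the tissue taken apart was the RPE with choroid and sclera, and most of the cells were fibroblasts by their markers.

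Myocilin is a secreted glycoprotein with a coiled coil towards its amino end and an olfactomedin domain towards its carboxyl end. It is known from the trabecular meshwork, the drainage tissue of the front of the eye, where glucocorticoids raise it, and from the sclera and ciliary body. Variants that misfold and stay in the endoplasmic reticulum cause a hereditary open-angle glaucoma, whereas the normal task of the protein is not settled. Decorin-positive fibroblasts of the sclera and choroid build the collagen coat of the eye.

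Myoc (ENSMUSG00000026697) lies on the plus strand of mouse chromosome 1 from 162639155 to 162649693 in GRCm38 (GENCODE vM21), with 3 exons of 671, 126 and 1277 bases. Myocos (ENSMUSG00000091060), an antisense gene on the minus strand from 162647193 to 162658219, overlaps it by 2501 bases. Myocos had 12 UMIs in each library, against 105993 Myoc UMIs in the kept control cells and 85193 in the kept Dox cells, and the strand setting of the counting is not given in the sources used here. The bases before the transcript start are printed here because the genes most like Myoc in these cells, described further on, can be set beside it there. All come from RefSeq on GRCm38.p6, on the strand of the gene, 250 bases for Myoc (chr1:162638900-162639149) and the last 80 before the start for Thbs4 (chr13:92794819-92794898, minus strand), Chil1 (chr1:134182076-134182155, plus strand), Chad (chr11:94564967-94565046, plus strand) and Tnmd (chrX:133850928-133851007, plus strand). Capitals mark the TATA box letters TATAAA.
Myoc: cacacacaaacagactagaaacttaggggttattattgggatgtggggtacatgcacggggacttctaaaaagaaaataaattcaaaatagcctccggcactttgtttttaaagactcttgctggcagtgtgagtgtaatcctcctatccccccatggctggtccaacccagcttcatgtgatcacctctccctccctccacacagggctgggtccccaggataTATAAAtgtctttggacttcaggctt
Thbs4: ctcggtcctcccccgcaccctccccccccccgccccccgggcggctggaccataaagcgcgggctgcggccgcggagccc
Chil1: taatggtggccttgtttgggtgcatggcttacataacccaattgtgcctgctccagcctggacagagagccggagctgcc
Chad: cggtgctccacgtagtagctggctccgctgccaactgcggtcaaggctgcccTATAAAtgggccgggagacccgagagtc
Tnmd: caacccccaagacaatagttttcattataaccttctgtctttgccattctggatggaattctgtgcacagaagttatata

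TATAAA was searched for on the sense strand of the last 50 bases before the start. It began 26 bases before the start in Myoc and 28 bases before it in Chad, both counted from the RefSeq start, which for Myoc lies a few bases before the GENCODE start given above, and it was in 2 of the 11 promoters of Myoc and its 10 most alike genes, against 2.63% of 32851 mouse promoters. The E-box letters CANNTG, searched for on both strands of all 250 bases, were in 8 of the 11, Myoc among them, and in 66.2% of all promoters. The glucocorticoid receptor half-site AGAACA was in 2 of the 11 (Pi16 and S100a6), against 16.1% of all promoters, and was not among the letters of the Myoc window. GGAATG, letters known from binding sites of TEAD factors, was in 1 of the 11 (Thbs4), against 12.6% of all promoters. Each motif was searched for on its own, and a match of letters is not a bound site.

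The libraries held 117731270 UMIs in 20381 deposited control cells and 103997248 UMIs in 15649 deposited Dox cells, with a median of 4495 and 4995 UMIs per kept cell. Gated fibroblasts had medians of 5010 (control) and 5606 UMIs (Dox). Of the cell barcodes, 427 occurred among the kept cells of both libraries and 139 among the gated fibroblasts of both. The gate was checked against the 11 fibroblast markers other than Dcn, of which 10 were at 10 CPM or more in gated cells of both libraries, with summed levels of 6526 CPM in the control and 6598 CPM in the Dox library against 1300.02 and 1059 CPM in the other cells. RNA of other types was not absent from it: the 10 RPE markers summed to 6020 and 7228 CPM in gated fibroblasts, against 54824 and 70174 CPM in the other cells. Whether this RNA came from cells of another type or was free RNA was not tested. A defining marker of another type at the same cut was carried by 558 gated control cells (4.79%) and 160 gated Dox cells (1.88%).

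Myoc UMIs were found almost wholly in fibroblasts. Of all Myoc UMIs in kept cells, 96.4% in control and 97.2% in Dox lay in gated fibroblasts, which were 57.8% and 55.1% of the cells. Their Myoc level was 1531 CPM in control (1522 to 1541, from 102191 UMIs) and 1591 CPM in Dox (1579.9 to 1602, from 82770 UMIs). A change in the number of high cells and a change of the level within a cell both enter such a summed level. The level went up with Dcn itself. In the cells just under the gate, with 1000 to 2000 Dcn CPM, Myoc was at 194 CPM in the control and 138 CPM in the Dox library, and in those just inside it, with 2000 to 4000 Dcn CPM, at 329.8 and 324 CPM. Cells with 8000 Dcn CPM or more had 2419.6 CPM in the control and 2732 CPM in the Dox library.

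Cell types were also taken from clusters made without Myoc among the features. Of the 10 clusters 7 were named from fixed markers among their leading genes, 2 were called fibroblast-like because most of their cells passed the Dcn gate, and 1 was left unnamed, so that 3 in all were fibroblast-like. The largest was led by Myoc, Chad, Tnmd and Cyp26a1, the next by the chemokine and interferon genes Cxcl10, Cxcl9, Ccl11 and Ifit1, and the smallest by Sfrp4 and Dpt. Cells of the 3 fibroblast-like clusters had 1473 CPM of Myoc in control (1464 to 1482) and 1456 CPM in Dox (1446 to 1466). Within them the level was far from even. The largest cluster stood at 1632 CPM in the control and 1643 CPM in the Dox library and the smallest at 1249 and 1341 CPM, whereas the Cxcl10-led cluster had 105.01 CPM in control (97.4 to 113) and 106 CPM in Dox (98.1 to 114).

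In the control library the order of the other types was melanocyte-like (406 CPM, 391 to 421), a cluster left unnamed that was led by Gfra3, Kcna1 and Snhg7os (315 CPM), NK or T-like (261 CPM, 239 to 284), macrophage-like (184 CPM), endothelial-like (181 CPM), smooth muscle-like (173 CPM) and RPE-like (59.1 CPM, 56.1 to 62.2). The intervals of the macrophage-like, endothelial-like and smooth muscle-like cells overlapped. In the Dox library the order was the unnamed cluster (319 CPM), melanocyte-like (254 CPM), macrophage-like (95.5 CPM), smooth muscle-like (58.6 CPM), endothelial-like (34.1 CPM), RPE-like (33.1 CPM) and NK or T-like (27.3 CPM), and the intervals of the smooth muscle-like and endothelial-like cells overlapped, as did those of the last 3. The melanocyte-like cluster was led by the hemoglobin gene Hbb-bs ahead of Pmel, and its cells were shallow, with medians of 1381 control and 786 Dox UMIs. At a resolution of 0.2 a Schwann-like cluster separated, with 5 Myoc UMIs in 49 control cells and 3 in 32 Dox cells.

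**Figure D1:**
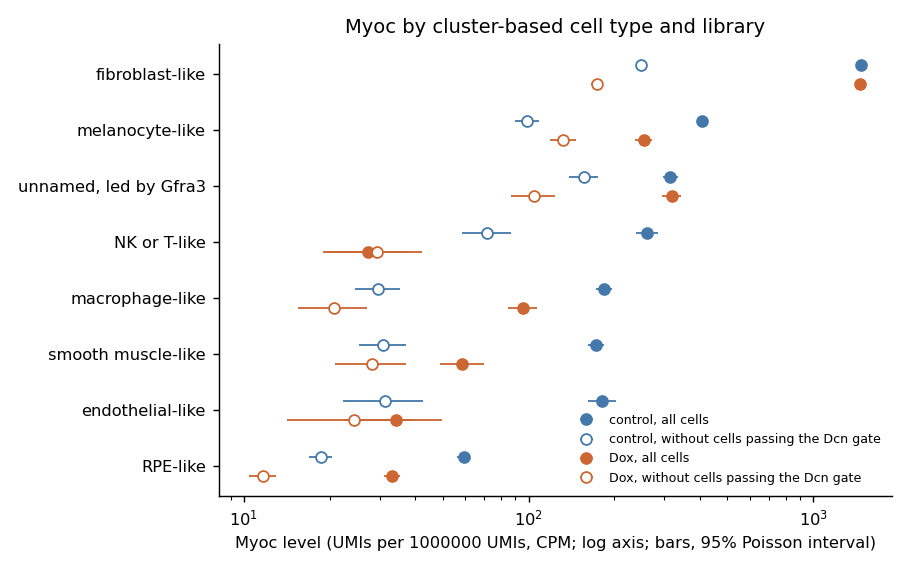
Myoc level (CPM, log axis) per cluster-based cell type in control (blue) and Dox (orange), with 95% Poisson intervals. Filled points use all cells of the type and open points leave out the cells that pass the Dcn gate, which takes the macrophage-like, smooth muscle-like and endothelial-like levels to between 20.7 and 31.3 CPM in both libraries.

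Most Myoc UMIs outside the fibroblast-like clusters came from cells that passed the Dcn gate all the same. Without those cells, a setting added after the data were seen, macrophage-like cells had 29.6 CPM in control (24.5 to 35.5) and 20.7 CPM in Dox (15.5 to 27.1). Melanocyte-like cells had 98.8 CPM in control, where all their cells had 406 CPM, and 132 CPM in Dox. The unnamed cluster had 156 and 104 CPM and the NK or T-like cells 71.7 and 29.3 CPM. RPE-like cells had 18.6 CPM in the control and 11.7 CPM in the Dox library, endothelial-like cells 31.3 and 24.3 CPM, and smooth muscle-like cells 30.8 and 28.2 CPM. Decorin was at 266 and 206 CPM in the macrophage-like cells so reduced, and the part of free RNA in these levels was not tested. Per 100 Dcn UMIs there were 11.1 and 10.1 Myoc UMIs in macrophage-like cells, 11.8 and 15.5 in smooth muscle-like cells, 10.7 and 9.71 in endothelial-like cells and 8.78 and 10.7 in RPE-like cells, against 14.8 and 16.6 in gated fibroblasts. The ratio was 20.7 and 22.8 in the melanocyte-like cells, 26.4 and 21.3 in the unnamed cluster and 25.4 and 16.4 in the NK or T-like cells, above that of gated fibroblasts in all but the last of these values.

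A Myoc UMI was carried by 31.6% of gated fibroblasts in control (30.7 to 32.4) and 31.4% in Dox (30.4 to 32.4), against 14.8% and 14.7% of all other cells. RPE-like cells, at a median of 17976 and 20496 UMIs, carried one in 19.7% and 19.1%, and macrophage-like cells, at 4192 and 3061 UMIs, in 14.99% and 12.8%. Exactly 1 Myoc UMI was found in 11.4% of gated control fibroblasts and 11.5% of gated Dox fibroblasts, and in 11.6% and 12.1% of the other cells, whose depths differ by type, so that a single UMI did not set fibroblasts apart. Fibroblasts with 10 Myoc UMIs or more numbered 1400 in control (12.01%, 11.4 to 12.6) and 985 in Dox (11.6%, 10.9 to 12.3), against 0.751% and 0.548% of the other cells. At 100 UMIs or more there were 305 control and 244 Dox fibroblasts, and 4 and 0 other cells.

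Within gated fibroblasts most Myoc UMIs lay in few cells. The extent depended on how cells were chosen. With Dcn at 10 UMIs and 4000 CPM the highest 10% of cells held 87.5% of the Myoc UMIs in control and 88.3% in Dox. In the fibroblast-like clusters they held 93.2% and 93.9%. A cut of 5 UMIs and 2000 CPM on Col1a2, the gene of a type I collagen chain, kept only 298 control and 205 Dox cells. Of these 67.4% and 67.3% held a Myoc UMI, and their highest 10% held 42.1% and 41.96% of the UMIs. Col1a2 was at 594 and 615 CPM in gated fibroblasts and was itself higher where Myoc was high. The median gated fibroblast had 0 Myoc UMIs in both libraries, and the third quartile was 1 UMI. The 95th percentile was 55 UMIs in control and 57 in Dox, the 99th 174 and 212, and the highest cells had 525 and 722. In single cells Myoc reached 78569 CPM in the control and 63698 CPM in the Dox library. The 10% of gated fibroblasts with the highest Myoc CPM held 90.2% of their Myoc UMIs in control (89.97 to 90.3) and 91.6% in Dox (91.4 to 91.8), and the highest 1% (117 and 85 cells) held 26.9% and 29.1%. The 2280 control and 1680 Dox fibroblasts with 1 to 9 UMIs held 5.14% and 4.66% of the Myoc UMIs.

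**Figure D2:**
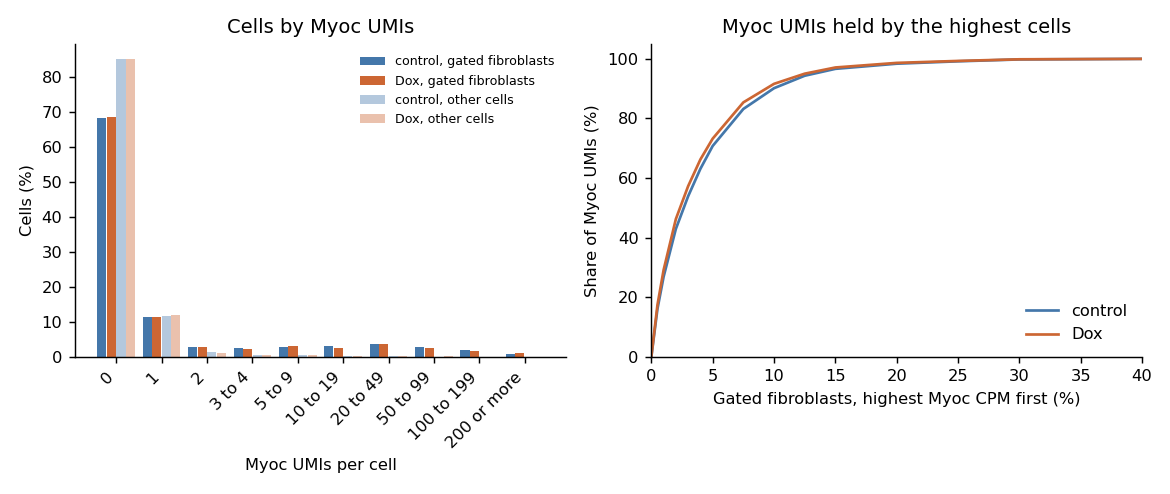
Left, share of cells (%) by Myoc UMIs per cell in gated fibroblasts (dark) and all other cells (light) of control (blue) and Dox (orange). Right, share of the Myoc UMIs of gated fibroblasts (%) held by the fibroblasts with the highest Myoc CPM (%), where the first 10% of cells held 90.2% in control and 91.6% in Dox.

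This spread was wider than that of genes of a like UMI sum. Of the 164 genes whose UMIs in gated control fibroblasts were within 2-fold of those of Myoc, Myoc ranked first by the share of its UMIs in the highest 10% of cells, and the median of the 164 was 19.2%. It ranked first of 158 in Dox, where the median was 18.8%. The gene next to it in both libraries was Chil1, chitinase-3-like 1, a secreted glycoprotein, with 88.6% in control and 86.3% in Dox. No gene of either set was detected in fewer fibroblasts than Myoc, the median gene having a UMI in 96.6% of them in control and 97.1% in Dox.

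Depth moved with Myoc. Gated fibroblasts with 0 Myoc UMIs had a median of 4609.5 UMIs in control and 5304 in Dox, and those with 10 or more had 7453 and 7790. Their median mitochondrial share hardly differed, at 1.32% against 1.36% in control and 1.205% against 1.24% in Dox. Dcn was at 9069 against 15126 CPM in control and at 8002 against 15654 CPM in Dox. With every cell thinned to 2000 UMIs, which left out 565 control and 393 Dox fibroblasts, a Myoc UMI was in 22.7% of control and 21.3% of Dox cells, and the highest 10% held 90.8% and 92.3% of the UMIs. The part of depth in the other values was not tested.

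Between the conditions Myoc hardly differed in fibroblasts. The log2 ratio of Dox over control was 0.06 (0.04 to 0.07) in gated fibroblasts, and 35.0% of the 14442 genes compared had a smaller ratio in size. In the fibroblast-like clusters the ratio was -0.02 (-0.03 to -0.00), so that its sign depended on how fibroblasts were taken. The share with a Myoc UMI was 31.6% in the control and 31.4% in the Dox library, and the share with 10 or more 12.01% and 11.6%. In the fibroblasts with 10 Myoc UMIs or more the level was 8604 CPM in the control and 9907 CPM in the Dox library, a log2 ratio of 0.20 (0.19 to 0.22), and in those with 1 to 9 UMIs it was 369 and 362 CPM. The choice of fibroblasts by Col1a2 at the same cut left cells with 8319 and 10082 CPM, a log2 ratio of 0.28.

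The genes that went with Myoc from cell to cell were found over 11089 control and 8104 Dox fibroblasts thinned to 2000 UMIs, as the Pearson correlation r of the log of 1 plus the UMIs. The 8100 genes compared were detected in at least 2% of the thinned cells of both libraries. The cells of a library share its preparation and its free RNA, and r is given as a description. The median r was 0.00 in both libraries, and 7762 genes lay between -0.1 and 0.1 in both. An r of 0.1 or more was reached by 153 genes in control (1.89%) and 158 in Dox (1.95%), and an r of -0.1 or less by 129 (1.59%) and 152 (1.88%).

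Of the 10 genes most like Myoc, 3 (Thbs4, Chad and Tnmd) are on the list of tendon and sclera genes. Chil1 had the highest r in control (0.536, and 0.513 in Dox). Its level was 386 CPM in control fibroblasts with 0 Myoc UMIs, 1159.9 CPM in those with 1 to 9, 5758 CPM in those with 10 or more and 10893 CPM in those with 100 or more. In Dox the same 4 classes had 382, 1086, 5268 and 9032 CPM. Thbs4, thrombospondin 4 of the tendon matrix, had an r of 0.534 in control and 0.556 in Dox. It was at 39.2 CPM in the control and 38.0 CPM in the Dox library in fibroblasts with 0 Myoc UMIs, and at 706 and 705 CPM in those with 10 or more. Both genes thus stood higher at each step of Myoc in each library.

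Chad, chondroadherin, a leucine-rich repeat protein of cartilage matrix, had an r of 0.475 in control and 0.484 in Dox. Its level was 16.6 CPM in the control and 16.3 CPM in the Dox library without Myoc, and 589 and 731 CPM in fibroblasts with 10 Myoc UMIs or more. Tnmd, tenomodulin, a membrane protein that marks tendon and ligament cells, had an r of 0.383 and 0.374. It stood at 10.6 and 8.89 CPM without Myoc and at 297 and 296 CPM with 10 Myoc UMIs or more. With 1 CPM added to both levels, these differences were log2 folds of 5.07 and 5.40 for Chad and 4.68 and 4.91 for Tnmd. They were the widest of the 10 most alike genes. All 10 were at least 2-fold higher with 10 Myoc UMIs or more than without in both libraries, as were 1.35% of the 8100 genes in control and 1.52% in Dox. The 10 were picked by their r with Myoc over these same fibroblasts, so that the count follows from the choice and is a description.

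The others of the 10 were Igfbp6, an insulin-like growth factor binding protein (r 0.492 in control and 0.534 in Dox), Pi16, a secreted protein of adventitial fibroblasts (0.427 and 0.424), the calcium-binding S100a6 (0.397 and 0.403), Serpinf1, pigment epithelium-derived factor (0.397 and 0.402), the retinoic acid-degrading enzyme Cyp26a1 (0.382 and 0.371) and Itgbl1, an integrin beta-like protein (0.364 and 0.347). Igfbp6 went from 284 CPM without Myoc to 1642 CPM with 10 UMIs or more in control, and from 232 to 1635 CPM in Dox. S100a6, which had a UMI in 86.2% of the thinned control and 84.5% of the thinned Dox fibroblasts, went from 1867 to 4950.2 CPM and from 1779 to 4975 CPM. Dcn, which set the gate, was itself among the 20 most alike genes (0.266 and 0.334). Of the 20 genes most like Myoc in control, 19 were among the 20 in Dox, and 83 of the first 100 were shared.

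The 5 genes of the lowest r in control were Junb, Zfp36, Cebpd, Nr4a1 and Btg2. The lowest was that of Junb, a subunit of the AP-1 transcription factor (-0.469 in control and -0.464 in Dox). It was at 11709 CPM in control fibroblasts with 0 Myoc UMIs and at 5553 CPM in those with 10 or more, and at 12147 and 5316 CPM in Dox. Zfp36, tristetraprolin, which marks mRNAs for decay, followed with -0.446 and -0.440. Cebpd, a transcription factor of acute responses, had -0.408 and -0.421, the nuclear receptor gene Nr4a1 -0.382 and -0.423, and the antiproliferative gene Btg2 -0.380 and -0.382. Their log2 folds between the classes ran from -1.08 for Junb to -1.73 for Btg2 in control and from -1.19 to -1.95 in Dox. All 5 were at least 2-fold lower in both libraries, as were 3.27% of the genes in control and 3.85% in Dox, a count that again follows from their choice by r. Of the 20 lowest genes in control, 17 were among the 20 lowest in Dox.

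**Figure D3:**
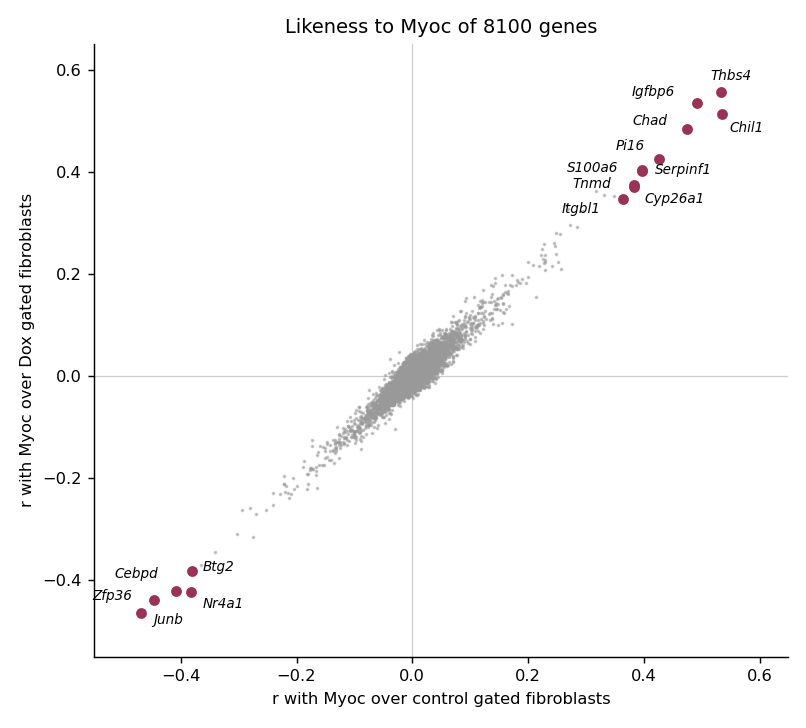
Pearson correlation r with Myoc of 8100 genes (gray) over thinned gated fibroblasts of control (x axis) and Dox (y axis), with the 10 highest and the 5 lowest genes in control named. The named genes lie far from the main cloud in both libraries, from -0.469 for Junb to 0.536 for Chil1 in control.

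**Figure D4:**
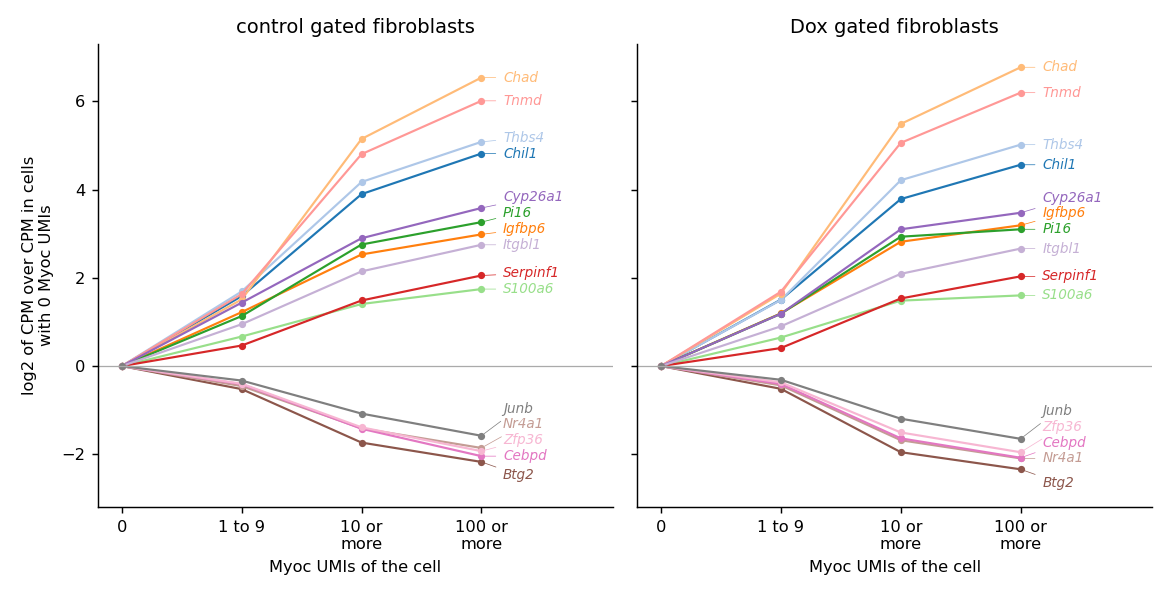
Level of the 15 named genes as the log2 of CPM over that in fibroblasts with 0 Myoc UMIs, in fibroblasts with 0, 1 to 9, 10 or more and 100 or more Myoc UMIs, for control (left) and Dox (right). The cells with 100 or more are also part of those with 10 or more. Each of the 10 most alike genes stands higher and each of the 5 lowest genes lower at every step.

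The same genes were compared by the share of cells that held them. Among thinned control fibroblasts with a Myoc UMI, 35.6% had a Thbs4 UMI (33.7 to 37.5), against 5.78% of those without (5.29 to 6.29), and in Dox the shares were 35.6% and 5.19%. For Chil1 they were 54.7% and 19.7% in control and 57.6% and 25.04% in Dox. Of the cells with a Chad UMI, 72.0% in control (68.4 to 75.4) and 68.4% in Dox (64.0 to 72.5) also had a Myoc UMI, and of those with a Tnmd UMI 73.0% and 73.5%. Myoc UMIs were thus not confined to cells with Tnmd or Chad, but most of those cells held Myoc.

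Cells with at least 2 UMIs of Tnmd or Chad were 910 control (7.81%) and 661 Dox (7.78%) gated fibroblasts. Their Myoc level was 7466 CPM in control (7407 to 7527) and 8844 CPM in Dox (8767 to 8921), against 726 and 694 CPM in the remaining fibroblasts. They held 58.3% of the Myoc UMIs of control fibroblasts and 61.2% of those of Dox fibroblasts. Of the fibroblasts with 10 Myoc UMIs or more they were 578 of 1400 in control (41.3%) and 408 of 985 in Dox (41.4%), and of those with 100 or more 222 of 305 (72.8%) and 175 of 244 (71.7%). Their median depth was 8089 and 8489 UMIs, against 4832 and 5439 in the remaining cells, and its part in the difference was not tested.

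Fibroblasts with at least 2 UMIs of the interferon-induced chemokines Cxcl9 or Cxcl10 were 2372 in control (20.4%) and 1805 in Dox (21.2%). Their Myoc level was 673 CPM in control (659.7 to 686) and 635 CPM in Dox (621 to 649.9), below the 1769 and 1862 CPM of the other fibroblasts, at a like median depth (5094 against 4992 UMIs in control and 5654 against 5576 in Dox). The corneal and scleral proteoglycan gene Kera reached 2 UMIs in 14 control and 3 Dox fibroblasts. These few cells held 342 and 27 Myoc UMIs. Of the gated fibroblasts of the largest cluster 13.2% had 10 Myoc UMIs or more in both libraries, against 11 of 1075 (1.02%) in control and 7 of 916 (0.764%) in Dox in the Cxcl10-led cluster. The smallest cluster had 28 of 112 and 16 of 68. The clusters were formed by genes that go with Myoc, so that these shares are descriptions.

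Gene lists that bear on myocilin were set beside the 1.89% of genes at an r of 0.1 or more and the 1.59% at -0.1 or less in control. The lists were chosen with earlier results of these data known. Thbs4, Chad and Tnmd on the first list were also among the 10 most alike genes above, so that the counts are descriptions. Of the 12 genes on the tendon and sclera list 7 were detected widely enough, and 6 of them had an r of 0.1 or more in both libraries, with a median of 0.317 in control and 0.362 in Dox. Beside Thbs4, Chad and Tnmd these were the collagen-binding proteoglycan Fmod (0.317 and 0.362), Comp, cartilage oligomeric matrix protein (0.256 and 0.279), and Ogn (0.123 and 0.168). Fmod was at 30.4 CPM without Myoc and 344 CPM with 10 UMIs or more in control, and at 32.7 and 448 CPM in Dox. Prelp had 0.0646 and 0.0919. Scx, the tendon transcription factor scleraxis, was too rare to be compared and stood at 0.994 against 11.6 CPM in control and 2.07 against 12.8 CPM in Dox.

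Of the 8 fibrillar and fibril-associated collagens, all compared, 4 had an r of 0.1 or more and 0 an r of -0.1 or less. Col12a1, of a fibril-associated collagen, was first with 0.331 in control and 0.355 in Dox and stood at 44.0 against 286 CPM and 44.2 against 328 CPM. The type I collagen genes followed, Col1a2 with 0.252 and 0.223 (466 against 1049 CPM in control, 504 against 1112 CPM in Dox) and Col1a1 with 0.229 and 0.223. Col11a1 had 0.144 and 0.142. Type III collagen did not go with them, Col3a1 having -0.00637 and -0.0337 and a level of 314 against 283 CPM in control.

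On the list of trabecular meshwork genes, 10 of 12 were compared, with a median r of -0.01 in both libraries. Chil1 and Foxc2, a forkhead factor of the front of the eye (0.133 and 0.144), were at 0.1 or more. Ptgds, prostaglandin D synthase (-0.126 and -0.141), Cyp1b1 (-0.118 and -0.132) and Mgp, matrix Gla protein (-0.117 and -0.122), were at -0.1 or less. The r of Ptgds and its summed level did not go the same way in control, where it was at 5285 CPM without Myoc and at 6728 CPM with 10 UMIs or more. Angptl7, an angiopoietin-like protein of the meshwork and cornea, was below the detection limit of the comparison but stood at 0.582 CPM without Myoc and 107 CPM with 10 UMIs or more in control, and at 0.748 and 133 CPM in Dox. Nell2, also below the limit, stood at 1.02 against 16.4 CPM and 0.539 against 23.1 CPM. Genes of the meshwork list thus lay on both sides of Myoc in these fibroblasts.

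Proteins known to bind myocilin or to act with it were compared for 8 of 12 genes. Fn1, fibronectin (0.246 in control and 0.254 in Dox), Sparc, a collagen-binding matrix protein (0.242 and 0.216), and Timp3, an inhibitor of matrix metalloproteinases (0.104 and 0.0821), reached 0.1 in control. Fn1 was at 18.0 against 118 CPM in control and 20.6 against 123 CPM in Dox. Sparcl1, hevin, a relative of Sparc, was on the other side with -0.137 and -0.148, at 246 against 86.5 CPM in control and 183 against 37.2 CPM in Dox. The flotillin genes Flot1 and Flot2 had 0.00862 and -0.00154 in control.

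Of the 12 other genes with an olfactomedin domain 8 were compared, with a median r of -0.02 in control and -0.03 in Dox. Olfml3 alone was at 0.1 or more (0.148 and 0.141), with 184 against 350 CPM in control and 200.2 against 382 CPM in Dox. Olfml2a had -0.0851 and -0.120, at 124 against 62.8 CPM and 154 against 66.5 CPM. Olfm3, Olfm4, Gldn and Adgrl2 were too rare to be compared, and Olfm3 had 0 UMIs in gated fibroblasts.

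None of the 11 genes of protein folding and secretion reached 0.1 or -0.1 in either library. The same held for 7762 of the 8100 genes compared, so that this count does not set the 11 apart. The highest was Hsp90b1, the chaperone of the endoplasmic reticulum also called Grp94 (0.0742 and 0.0856), at 467 against 600.3 CPM in control and 485 against 642 CPM in Dox. Hspa5, the chaperone BiP, had -0.0429 and -0.0223, at 699 against 633 CPM and 795 against 754 CPM. Manf, a secreted stress protein of the endoplasmic reticulum, had 0.0478 and 0.0848.

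Of 12 genes of the glucocorticoid response 10 were compared, 0 were at 0.1 or more, and 5 in control and 6 in Dox were at -0.1 or less. These were Cebpd, the metallothionein genes Mt1 (-0.179 and -0.212) and Mt2 (-0.101 and -0.108), Klf9 (-0.133 and -0.141), the phosphatase gene Dusp1 (-0.127 and -0.124) and, in Dox, the kinase gene Sgk1 (-0.0970 and -0.126). Cebpd, Dusp1 and the metallothioneins are also known to respond to stress and cytokines. Of the other 4 compared, Per1 had -0.0689 and -0.0795, Nr3c1, the gene of the receptor, -0.0202 and -0.0199, Fkbp5 -0.0192 and 0.00711 and Tsc22d3 0.00209 and 0.0170.

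Of 12 interferon and chemokine genes 11 were compared, and all 11 had an r below 0 in both libraries. The chemokine gene Cxcl1 (-0.215 and -0.230), Irf1, an interferon-regulated transcription factor (-0.213 and -0.239), and Cxcl10 (-0.122 and -0.135) were at -0.1 or less in both, and Isg15 in Dox alone (-0.0602 in control and -0.101 in Dox). Cxcl10 was at 657 against 141 CPM in control and 736 against 94.3 CPM in Dox. Of 8 secreted Wnt antagonists 3 were compared, and 1 had an r of 0.1 or more. This was Dkk2 with 0.138 and 0.161, at 64.9 against 142 CPM and 73.2 against 162 CPM. Dkk3 had -0.0472 and -0.0223 and was at 172 against 132 CPM in control, and Sfrp1 had 0.0241 and -0.000776. Sfrp2, too rare for the comparison, stood at 22.0 against 115 CPM in control and 14.7 against 153 CPM in Dox, whereas Sfrp4, also too rare, stood at 33.2 against 10.7 CPM and 7.18 against 18.6 CPM.

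**Figure D5:**
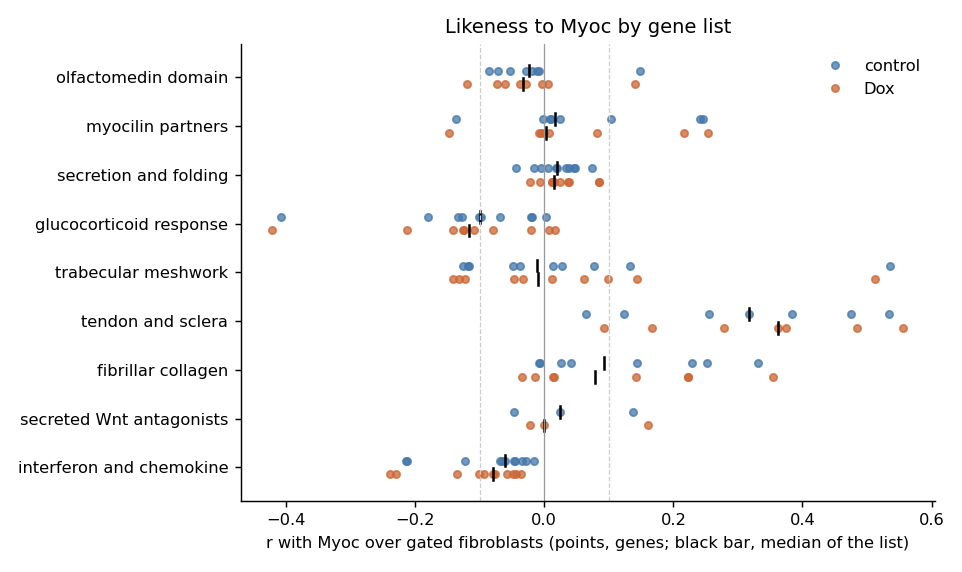
Pearson correlation r with Myoc over thinned gated fibroblasts of the compared genes of 9 lists, in control (blue) and Dox (orange). Black bars are list medians and dashed lines mark -0.1 and 0.1, and the tendon and sclera genes lie highest with medians of 0.317 and 0.362.

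Markers of other cell types were set beside Myoc in the same way. Between fibroblasts with 0 and with 10 or more Myoc UMIs the 12 fibroblast markers, Dcn included, summed to 15116 against 23516 CPM in control and 14065 against 24662 CPM in Dox. Dcn, the gene of the gate, made up most of this rise, at 9069 against 15126 CPM and 8002 against 15654 CPM. The markers did not all go 1 way. Lum, among the 20 genes of the lowest r, was at 2275 against 903 CPM and 2163 against 859 CPM, and Col3a1 was slightly lower in both libraries. The 10 smooth muscle or pericyte markers summed to 1293 against 2144 CPM and 983 against 1989.8 CPM. Most of that gap was Rgs5, a regulator of G-protein signaling known from pericytes, which was itself among the 20 genes most like Myoc (284 against 754 CPM in control and 232 against 857 CPM in Dox). The 9 endothelial markers summed to 671 against 248 CPM and 678 against 252 CPM. Nearly all of this difference was 1 gene, Emcn, at 587 against 203 CPM in control and 630 against 214 CPM in Dox. Emcn had a UMI in 56.2% of thinned control fibroblasts and was among the 20 genes of the lowest r. The 8 melanocyte markers summed to 2601 against 2039 CPM and 719 against 476 CPM. RPE markers were at 5774 against 6826 CPM in control and 7676 against 6320 CPM in Dox, and macrophage or dendritic cell markers at 674 against 888 CPM and 269.96 against 243 CPM, so that these 2 lists went opposite ways in the libraries. The 9 Schwann markers summed to 64.8 against 47.9 CPM and 42.7 against 36.7 CPM.

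The rarer types left few UMIs. NK or T cell markers summed to 22.7 CPM in both classes of control and to 25.9 against 3.01 CPM in Dox. B or plasma cell markers summed to 22.5 against 3.11 CPM and 1.23 against 0.502 CPM. Red blood cell markers went opposite ways, at 9.67 against 1.78 CPM in control and 12.7 against 119 CPM in Dox. Among the control fibroblasts with 10 Myoc UMIs or more the red blood cell gene Alas2 was at 0. The part of these lists in the values above was not tested, but without the gated cells that carried another type's defining marker the Myoc level was 1584 CPM in the control and 1627 CPM in the Dox library, and all of the 20 genes most like Myoc in control stayed among its 20.

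Over cell types, rather than over fibroblasts, partly other genes followed Myoc most closely. Over 8 types in 2 libraries (16 points, which share their libraries), the highest Pearson r of log2(CPM + 1) among 6091 genes was that of Igfbp6 (0.952), followed by Cyp26a1 (0.937), Cyp2f2, a cytochrome P450 (0.936), Crabp2, a retinoic acid-binding protein (0.924), and Selenbp1, a selenium-binding protein (0.917). The first 3 were also like Myoc from fibroblast to fibroblast (0.492, 0.382 and 0.348 in control), whereas Crabp2 had 0.116 there and Selenbp1 -0.104.

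The genes most like Myoc were also set side by side between the conditions. In gated fibroblasts 6.22% of 14442 genes differed by 1.5-fold or more between the libraries (1.15% higher and 5.07% lower in Dox), and 0 of the 10 most alike genes did, a count that so small a share over all genes does not set apart. Their log2 ratios of Dox over control ran from -0.23 for Igfbp6 (-0.25 to -0.20) to 0.16 for Itgbl1 (0.13 to 0.20). In fibroblasts with 10 Myoc UMIs or more, where 4.70% of 11436 genes differed so, 0 of the 10 did, and the ratios ran from -0.13 for Chil1 (-0.15 to -0.11) to 0.31 for Chad (0.26 to 0.36).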

How the data were processed

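Per the labels and the study's methods, single cells of the RPE, choroid and sclera were taken apart with papain and sequenced with the 10x 5′ gene expression kit. The deposited matrices hold raw UMI counts per gene and cell barcode, which the authors made with Cell Ranger 4.0.0 on mm10 per the submitters' processing notes. The sources used here do not give the settings of that counting.

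Cells were kept with more than 500 UMIs, 200 to 6000 genes, a log10 gene to log10 UMI ratio above 0.8 and a mitochondrial share below 0.2, after the study's methods. No doublet caller was run, and gated cells with another type's defining marker were left out as an alternative. Clusters came from Seurat 5.3.0 with sctransform 0.4.2 (R 4.3.3) on 2999 features without Myoc, 40 components and a resolution of 0.1. A cluster was named where at least 3 of a type's markers reached 10 CPM, at least 1 stood among its 10 leading genes and at least 50% of its cells held a leading marker, or was called fibroblast-like where at least 50% of its cells passed the Dcn gate. This naming rule was set after the clusters were seen, and other choices of names may shift the levels per type. Levels, intervals and correlations were computed in Python 3.11.15 with numpy 2.4.6 and scipy 1.17.1. The ratio intervals and the ranking by correlation were run on simulated counts, and the intervals of levels and shares were not. Those counts were drawn with the Poisson error that the ratio intervals assume, so that they check the computation and not the spread between cells or animals. Thinning used 2000 UMIs per cell.

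The genes named are the 10 highest and 5 lowest in correlation with Myoc in control, the 5 most like it over cell types, and the members of fixed lists with the largest correlations. Dcn, Rgs5 and the list members too rare to be correlated were named after their values were seen. The gene and all lists were chosen with earlier results of these data known. The alternatives tried changed the limits on cells, the fibroblast gate, the clustering, the thinning, the measure of likeness and the summary over cells. No protein sequences were used here. A marker list is not reported here.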

Additional observations from a re-analysis of the deposited data

Results flagged for a closer look

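In 6 cell types Myoc was lower in Dox than in control, while gated fibroblasts stood at 0.06 as the log2 of Dox over control. The fibroblast-like clusters, taken in the same way as these types, stood at -0.02 (-0.03 to -0.00) and the unnamed cluster at 0.02 (-0.13 to 0.16). These differences between types were not tested, since each condition was 1 library. The log2 ratios were -0.68 in melanocyte-like cells (-0.79 to -0.57), -3.26 in NK or T-like cells (-3.80 to -2.76), -0.95 in macrophage-like cells (-1.14 to -0.76), -1.56 in smooth muscle-like cells (-1.84 to -1.29), -2.41 in endothelial-like cells (-3.03 to -1.84) and -0.84 in RPE-like cells (-0.95 to -0.72). The cells of these types that passed the Dcn gate were 392 of 2262 melanocyte-like cells in control and 132 of 2087 in Dox, 68 of 431 and 33 of 254 NK or T-like cells, 129 of 994 and 79 of 587 macrophage-like cells, 145 of 916 and 44 of 401 smooth muscle-like cells, 55 of 391 and 12 of 187 endothelial-like cells, and 96 of 1348 and 48 of 1432 RPE-like cells. Without the gated cells the ratio was 0.42 in melanocyte-like cells (0.21 to 0.62), -1.29 in NK or T-like cells, -0.51 in macrophage-like cells, -0.13 in smooth muscle-like cells (-0.64 to 0.36), -0.36 in endothelial-like cells (-1.27 to 0.49) and -0.68 in RPE-like cells. The ungated cells of the fibroblast-like clusters were lower in Dox too (-0.52, -0.61 to -0.42), as were those of the unnamed cluster (-0.59, -0.90 to -0.28). Among the 6 types the sign thus turned in the melanocyte-like cluster, which was led by Hbb-bs. It did not turn in cells taken by 1 melanocyte marker, where Myoc was lower in Dox (30.2 against 73.3 CPM). None of those cells passed the Dcn gate. At a resolution of 0.2 an Hbb-bs-led cluster stood apart. The melanocyte-like cells of that setting, Dcn-gated ones included, were also lower in Dox (147 against 385 CPM).

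Myocos, the antisense gene that overlaps Myoc, was outside the main measurement and had 12 UMIs in the deposited control library and 12 in the deposited Dox library, of which 11 in each lay in gated fibroblasts. Cells outside the limits also held Myoc. In control 201 such cells had 95.8 CPM from 203 UMIs, 175 of them in 3 cells that passed the Dcn gate, and in Dox 223 such cells had 19.9 CPM from 94 UMIs, 42 of them in 6 gated cells.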

How the results depend on the processing

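No paired analysis was possible because each condition was 1 library. Values stand as the Myoc CPM, the share of cells with a Myoc UMI and the share of Myoc UMIs in the highest 10% of cells, first for control and then for Dox, and the log2 ratio of Dox over control. With Dcn at 10 UMIs and 4000 CPM they were 1818 CPM, 34.2% and 87.5%, then 1928 CPM, 34.8% and 88.3%, and 0.085. With Col1a2 in place of Dcn they were 8319 CPM, 67.4% and 42.1%, then 10082 CPM, 67.3% and 41.96%, and 0.28. In the cells of the fibroblast-like clusters they were 1473 CPM, 28.9% and 93.2%, then 1456 CPM, 28.7% and 93.9%, and the ratio turned to -0.016. Without cells that carried a marker of another type the CPM were 1584 and 1627, that 10% held 90.8% in control and the ratio was 0.039. Thinned to 2000 UMIs they were 1220.5 CPM, 22.7% and 90.8%, then 1269 CPM, 21.3% and 92.3%. Averaged over the cells' own CPM the level was 1218 and 1306, with a ratio of 0.10. A mitochondrial share under 0.1 and no limits on cells moved none of these by more than its interval. The highest level among named types outside fibroblasts was 406 CPM, in control melanocyte-like cells. It was 385 CPM at a resolution of 0.2, 375 CPM without integration, 300.9 CPM thinned and 73.3 CPM in cells gated by 1 marker. Without Dcn-gated cells it was 132 CPM, in Dox melanocyte-like cells. Unnamed clusters were left out of this ranking, and some stood higher. At a resolution of 0.2 the Hbb-bs-led cluster reached 687 (control) and 519 CPM (Dox). The Pnp2-led cluster reached 630 and 708 CPM, and the Snhg7os-led cluster 205 and 156 CPM. The Gfra3-led cluster of the control library stood at 349 CPM thinned and at 156 CPM without Dcn-gated cells. Of the 20 genes most like Myoc, 14 were shared by the libraries with Col1a2 in place of Dcn and 18 to 20 under the other alternatives, and of the 20 in control 13 remained with Col1a2 and 13 when detection in 10% of cells was asked. Leaving the Myoc UMIs out before thinning, and leaving out Dcn-gated cells, were added after the data were seen. With 1 library a condition, the spread between animals or preparations is unknown, and no value here compares the treatments beyond these libraries.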
